A study of Mus musculus with 18 samples.

Results

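The genes of inhibitory synapses were followed in bulk mRNA sequencing of frontal cortex from 18 mice. They are 27 genes of the 55487 in the deposited count table, chosen by name: 12 GABA-A receptor subunits, 2 GABA-B receptor subunits, 3 glycine receptor subunits, 3 enzymes of GABA synthesis and breakdown, 2 GABA transporters, 2 chloride transporters and 3 postsynaptic scaffold or trafficking proteins. They were picked by gene name and role, not by a threshold on their values. All 27 passed the filter on low counts that left 17414 genes to test.

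Each genotype had 3 females and 3 males, and the series text gives an age of 9 to 10 months. APP/PS1 mice are a transgenic model of amyloid deposition. APP/PS1/FTnKO mice carry the same transgenes, homozygous floxed alleles of the farnesyltransferase β-subunit and a CaMKIIα-Cre transgene, which deletes those alleles in forebrain neurons. Per the study's methods the APP/PS1 and WT mice also carry the homozygous floxed alleles, without Cre, whereas the series text calls the controls C57BL/6J WT, so the background of the WT mice is not settled. The promoter acts mainly in excitatory neurons. The question here is whether transcripts of inhibitory synapses differ with the amyloid transgenes and with the neuronal deletion.

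GABA is the main inhibitory transmitter of the cortex. It is made from glutamate by the enzymes of Gad1 and Gad2, loaded into vesicles by the transporter of Slc32a1, and binds GABA-A receptors, which are chloride channels built of 5 subunits, and GABA-B receptors, which act through G proteins. Glycine receptors are related chloride channels. The direction of chloride flow depends on the importer NKCC1 (Slc12a2) and the exporter KCC2 (Slc12a5).

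Libraries held 15925432 to 21030935 counted reads. WT samples had RNA integrity numbers between 8.5 and 8.8, APP/PS1 samples between 7.7 and 8.7, and APP/PS1/FTnKO samples between 7.6 and 8.7. Fntb, which encodes the floxed subunit, had 14.1 to 32.2 normalized CPM (the usual scaling of counts by library size, with TMM factors) in WT mice. APP/PS1 mice had 14.2 to 32.1 CPM of it and APP/PS1/FTnKO mice 7.84 to 14.7 CPM. App reached at most 1613 CPM in WT and at least 2117 in every mouse with the transgenes. WT mouse 19622 stood apart from the other 17: its 10 cerebellar markers summed to 3568 CPM, against 32.2 to 66.5 in the others, and its 6 excitatory neuron markers to 505, against 3118 to 6171. It was kept out of the comparisons, which left 5 WT mice, other than as an alternative named where it is used, and is described at the end. In bulk tissue fewer cells of a type and less RNA per cell cannot be told apart.

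Promoters are shown for pairs of genes that varied together over mice or lie side by side. They are RefSeq windows on GRCm38.p6, from 250 bases before to 50 after a transcript start, 5′ to 3′ on the gene's strand. Of the 27 genes, 24 have such a window. Capitals mark GGGCGG or its reverse complement and CCAAT or its reverse complement. GGGCGG is found in 35.6% and CCAAT in 37.4% of the 32817 mouse windows, both strands searched. Gabre (ε subunit, chrX:72274672-72274971, minus strand) and Gabrq (θ subunit, chrX:72824928-72825227, plus strand) lie in a cluster on chromosome X with Gabra3. Gabra4 (α4 subunit, chr5:71658259-71658558, minus strand) and Gabrb1 (β1 subunit, chr5:71657671-71657970, plus strand) lie head to head.

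Gabre: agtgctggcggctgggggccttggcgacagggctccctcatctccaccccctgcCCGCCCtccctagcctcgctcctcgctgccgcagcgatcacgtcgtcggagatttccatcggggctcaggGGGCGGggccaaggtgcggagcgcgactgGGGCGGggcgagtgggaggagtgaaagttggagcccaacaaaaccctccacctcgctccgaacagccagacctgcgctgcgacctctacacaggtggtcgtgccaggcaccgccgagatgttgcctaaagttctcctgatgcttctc

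Gabrq: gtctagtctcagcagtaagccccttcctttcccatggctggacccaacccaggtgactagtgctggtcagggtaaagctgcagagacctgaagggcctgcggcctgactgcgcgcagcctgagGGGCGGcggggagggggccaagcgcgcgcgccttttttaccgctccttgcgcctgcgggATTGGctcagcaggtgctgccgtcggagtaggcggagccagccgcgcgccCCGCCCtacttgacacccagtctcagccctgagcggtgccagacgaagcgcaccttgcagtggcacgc

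Gabra4: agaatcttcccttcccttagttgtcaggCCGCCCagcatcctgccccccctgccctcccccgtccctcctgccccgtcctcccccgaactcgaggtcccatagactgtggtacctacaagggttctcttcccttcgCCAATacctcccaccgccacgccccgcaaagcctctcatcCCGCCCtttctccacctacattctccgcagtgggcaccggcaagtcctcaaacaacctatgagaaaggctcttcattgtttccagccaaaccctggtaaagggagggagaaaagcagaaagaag

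Gabrb1: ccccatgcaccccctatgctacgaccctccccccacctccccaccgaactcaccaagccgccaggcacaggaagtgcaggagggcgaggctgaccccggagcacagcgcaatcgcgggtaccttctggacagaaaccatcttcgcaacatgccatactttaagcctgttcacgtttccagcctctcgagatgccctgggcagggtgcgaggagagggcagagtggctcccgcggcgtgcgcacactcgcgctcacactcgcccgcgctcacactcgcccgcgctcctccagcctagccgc

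The Gabre window held 3 matches to GGGCGG and none to CCAAT. The Gabrq and Gabra4 windows each held 2 matches to GGGCGG and 1 to CCAAT, and the Gabrb1 window held neither. RefSeq lists a second Gabrb1 window, chr5:71699682-71699981, with neither motif and a GC content of 50.3%. No window of these 4 held TATAAA (13.6% of all windows), CACGTG (7.15%) or TGACG (20.8%). Their GC content was 66.7%, 67%, 58.7% and 66%, against a median of 52.7% over all windows. Gabra4 and Gabrb1 share 46 exon bases on opposite strands. Slc32a1, Gabra5 and Gphn share 697, 148 and 147 exon bases with an antisense gene. The library kit marks strand, but with the strand setting of the counting not given in the sources used, reads of overlapping exons cannot be told apart.

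Levels between genes were compared as CPM per kilobase of exon. In WT cortex Gabbr1, a subunit of the GABA-B receptor, stood highest at 104 ± 2.83 (SD, n = 5). Slc12a5 followed at 97 ± 2.03, and the ranges of these 2 did not overlap with each other or with the next gene. Gad1 (61.3 ± 12.1) and Gabarap, a receptor trafficking protein (58.1 ± 1.32), overlapped. From Nlgn2, the adhesion protein of inhibitory synapses (50.2 ± 1.2), down to Gabrd, the δ subunit of extrasynaptic receptors (29.1 ± 2.11), neighbouring genes overlapped. Among the listed GABA-A subunits Gabra3 (41.4 ± 2.79) was highest, above Gabrd. Gabra4, Gphn (gephyrin, which anchors receptors), Gabrb2, Gabra2 and Gabra5 fell between 19.2 and 16 without a gap between neighbours. The exporter Slc12a5 exceeded the importer Slc12a2 (7.33 ± 0.562) in every WT mouse. The glycine receptor β subunit Glrb (43.2 ± 2.08) stood well above the α subunits Glra2 (4.01 ± 0.327) and Glra3 (1.19 ± 0.232). Gabrq, Gabrr2 (ρ2 subunit) and Gabre were lowest, at 0.637 ± 0.692, 0.26 ± 0.23 and 0.171 ± 0.153, and overlapped.

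**Figure D1:**
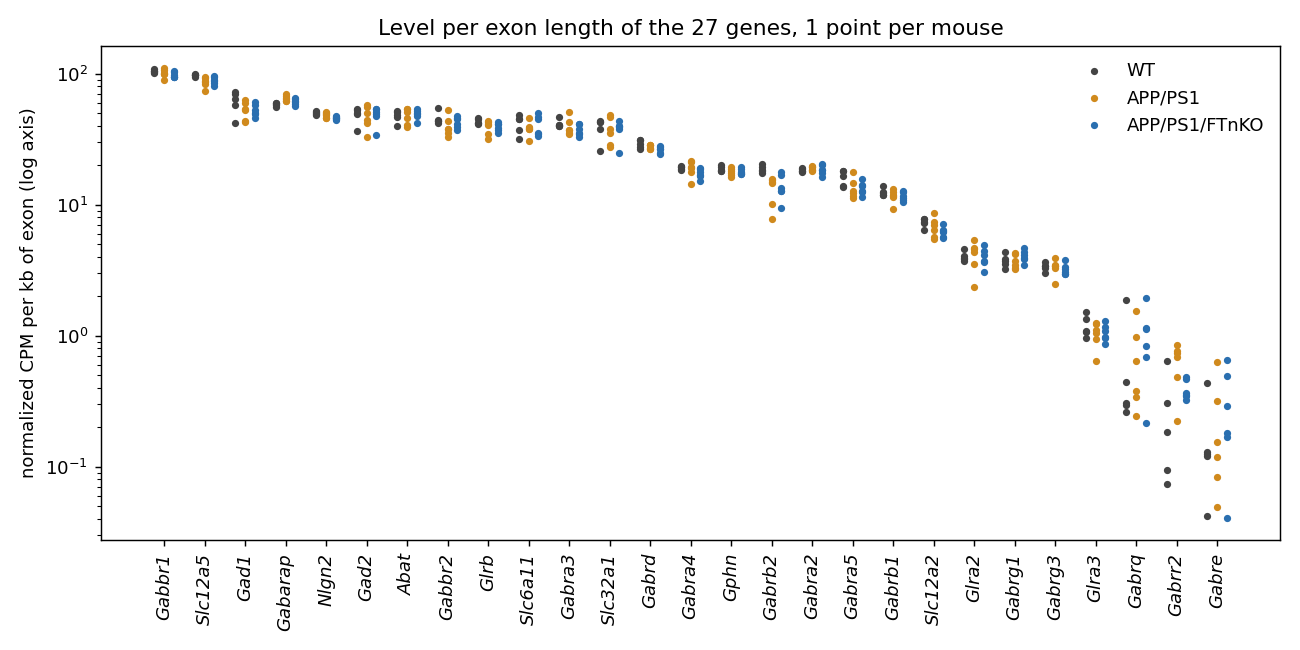
Normalized CPM per kilobase of exon (log axis) of the 27 genes in the order of their WT means, with 1 point per mouse and a colour per genotype (5 WT, 6 APP/PS1 and 6 APP/PS1/FTnKO mice). Gabbr1 and Slc12a5 lie at the top, and Gabrq, Gabrr2 and Gabre at the bottom with the widest scatter between mice.

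The neuronal deletion on the APP/PS1 background was examined first, in APP/PS1/FTnKO against APP/PS1 mice. Only the APP/PS1/FTnKO mice carry Cre, so Cre and the deletion cannot be told apart here. None of the 27 genes was called at a false discovery rate (FDR) of 0.05 in edgeR, where 0.327% of all tested genes were called. None passed an unadjusted threshold of 0.05 either, against 11.5% of all genes. DESeq2 and limma-voom also called 0, where they called 1.45% and 0.27% of all genes. With these tools 2 and 0 genes passed the unadjusted threshold (11.3% and 11.4% of all genes). In edgeR 3 genes passed that threshold with the RNA integrity number as a covariate (16% of all genes in the same fit), 3 without APP/PS1 mouse 19744 (11.2%), and 0 to 2 without any other single mouse (9.48% to 13.4%). In no gene were the groups without overlap, against 0.970% of all genes. Fold changes were lower in 12 and higher in 15 genes, with a median log2 fold change of 0.0068 against -0.0016 over all genes.

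The 5 genes with the smallest p were Gabarap, Nlgn2, Gabrr2, Gabra4 and Gabrd, and all 5 were lower in APP/PS1/FTnKO mice. Gabarap measured 104, 108, 113, 114, 118 and 121 CPM in APP/PS1/FTnKO and 115, 115, 119, 120, 124 and 128 CPM in APP/PS1 mice. The groups overlapped, with a log2 fold change of -0.09 ± 0.0427 (SE; edgeR FDR = 0.449; exact two-sided permutation p = 0.0519). The permutation test compares mean CPM and leaves sex out. Nlgn2 measured 256, 261, 264, 265, 270 and 276 CPM in APP/PS1/FTnKO and 264, 267, 278, 283, 292 and 295 CPM in APP/PS1 mice. Here 3 of 6 APP/PS1/FTnKO mice lay below every APP/PS1 mouse, with a log2 fold change of -0.08 ± 0.0379 (edgeR FDR = 0.455; exact permutation p = 0.0368). Gabrr2, at 3 to 33 reads per library, measured 0.684, 0.726, 0.748, 0.765, 0.984 and 1.02 CPM in APP/PS1/FTnKO and 0.47, 1.01, 1.46, 1.55, 1.6 and 1.8 CPM in APP/PS1 mice. The log2 fold change was -0.66 ± 0.374 (edgeR FDR = 0.542; exact permutation p = 0.0433), and -0.42 with the RNA integrity number as a covariate. Gabra4 measured 92.9, 101, 102, 108, 113 and 116 CPM in APP/PS1/FTnKO and 86.8, 108, 117, 117, 129 and 132 CPM in APP/PS1 mice, and Gabrd 69.8, 71.2, 76.6, 77, 79.3 and 80 against 75.9, 77, 77.7, 81.8, 82.2 and 82.2 CPM. Their log2 fold changes were -0.12 ± 0.0766 (edgeR FDR = 0.596; exact permutation p = 0.225) and -0.07 ± 0.0464 (edgeR FDR = 0.608; exact permutation p = 0.113). Without APP/PS1 mouse 16975 that of Gabra4 was -0.19 (edgeR FDR = 0.173). The excitatory neuron markers summed to 3118 to 4906 CPM in APP/PS1/FTnKO and 3788 to 5960 in APP/PS1 mice, and their part in these values was not tested.

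**Figure D2:**
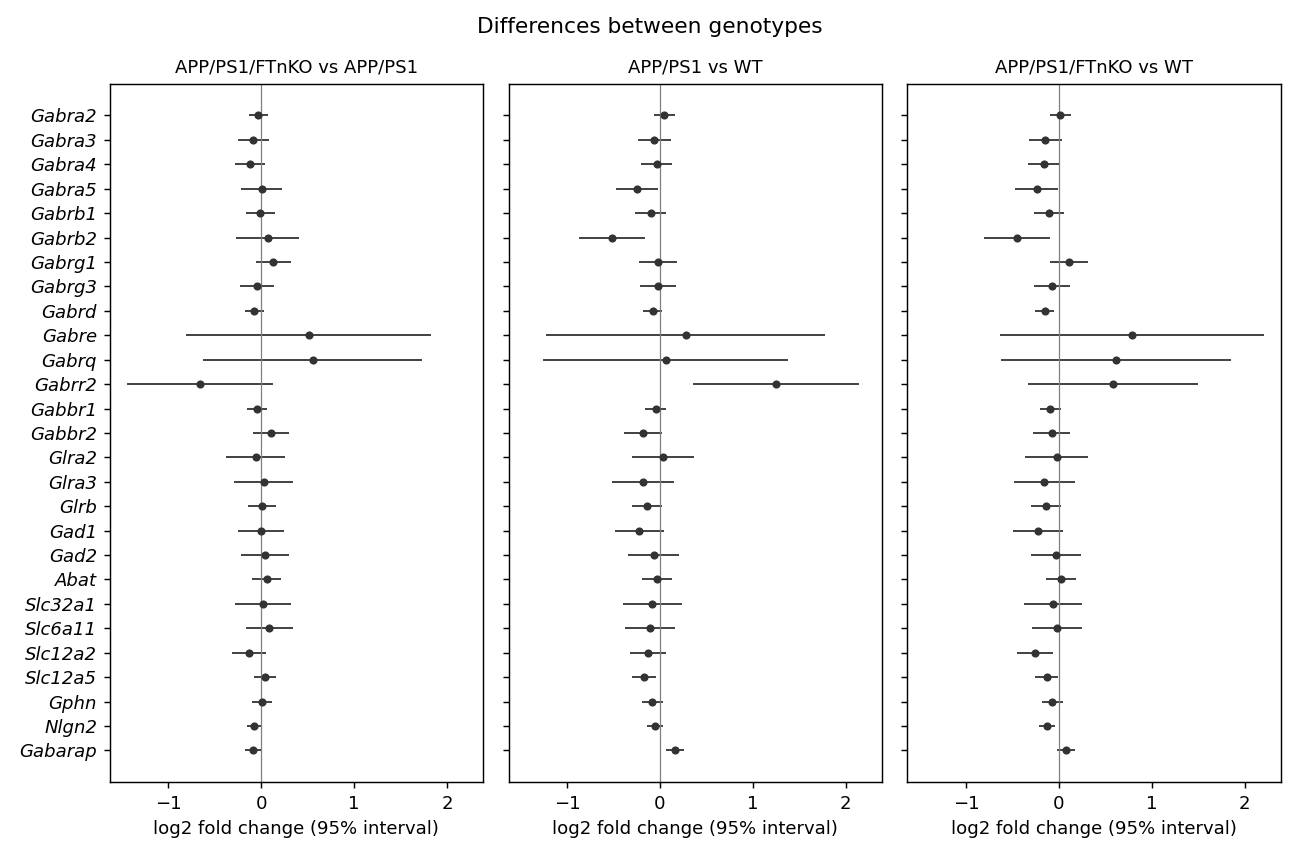
Log2 fold change (x axis) of each of the 27 genes in the 3 genotype comparisons, as points with 95% intervals from the edgeR fit. Intervals are widest for Gabre, Gabrq and Gabrr2, and in the comparisons with WT the Gabrb2 interval lies below 0.

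The amyloid transgenes were examined in APP/PS1 against WT mice. None of the 27 genes was called by edgeR, where 1.50% of all genes were called. At an unadjusted threshold 5 of 27 passed, against 14.0% of all genes. DESeq2 called 1 (Gabarap), where it called 2.69% of all genes, and limma-voom 0, where it called 1.09%. The groups did not overlap in 2 genes, Gabrb2 and Gabarap, against 2.40% of all genes. Fold changes were lower in 21 and higher in 6 genes, with a median log2 fold change of -0.07 against -0.0023 over all genes, of which 50.6% were lower.

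Gabrb2 encodes the β2 subunit, a part of the most common cortical GABA-A receptors. It measured 110, 116, 117, 123 and 130 CPM in WT and 49.9, 64.8, 93.7, 95.3, 98.9 and 99.1 CPM in APP/PS1 mice. Every APP/PS1 mouse lay below every WT mouse, and 2 of them stood far below the other 4. The log2 fold change was -0.52 ± 0.168 (edgeR FDR = 0.171), and the exact two-sided permutation p was 0.00433, the smallest that the 462 possible splits can give. With the RNA integrity number as a covariate the log2 fold change was -0.38 (edgeR FDR = 0.609). The 2 lowest APP/PS1 mice, 16975 and 19723, had integrity numbers of 7.7 and 8.3. Mice 19554, 19744, 19619 and 19553, at 93.7, 95.3, 98.9 and 99.1 CPM, had 7.9, 8.6, 8.7 and 8.1. The lowest APP/PS1/FTnKO mouse, 19720, had 8.6, and mouse 16974 of that genotype, at 81.2 CPM, had 7.6. Beyond the covariate fit, the part of RNA integrity in the Gabrb2 values was not tested. The 5 astrocyte markers summed to 1056 to 1176 CPM in WT and 1350 to 2557 in APP/PS1 mice. Gfap, a gene of reactive astrocytes, carried this gap (88 to 147 against 337 to 1252 CPM), and the other 4 summed to 968 to 1045 and 1014 to 1305 CPM, which overlapped. The 5 microglial markers summed to 216 to 250 and 272 to 385 CPM. The part of these cells in the Gabrb2 values was not tested.

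Gabarap measured 103, 107, 107, 109 and 109 CPM in WT mice, all below the 115 to 128 CPM of APP/PS1 mice given above. The log2 fold change was 0.16 ± 0.0451 (edgeR FDR = 0.0849; exact permutation p = 0.00433), and 0.10 with the integrity number as a covariate (edgeR FDR = 0.501). Slc12a5 measured 697, 724, 724, 731 and 736 CPM in WT and 554, 620, 639, 651, 686 and 705 CPM in APP/PS1 mice. Of the 6 APP/PS1 mice 5 lay below every WT mouse, with a log2 fold change of -0.17 ± 0.0606 (edgeR FDR = 0.21; exact permutation p = 0.00866). With the integrity number as a covariate it was -0.07 (edgeR FDR = 0.764).

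Gabrr2 measured 0.155, 0.2, 0.389, 0.651 and 1.34 CPM in WT mice, with a log2 fold change of 1.25 ± 0.425 (edgeR FDR = 0.19; exact permutation p = 0.039), and 0.76 with the integrity number as a covariate (edgeR FDR = 0.7). Its highest WT value came from mouse 19101, and without that mouse the log2 fold change was 1.93 (edgeR FDR = 0.00824). Mouse 19101 also had raised hypothalamic markers, given below. Gabra5, the α5 subunit of extrasynaptic receptors, measured 40.3, 41.5, 49.2, 53.3 and 53.7 CPM in WT and 33.6, 34.9, 36.3, 38, 43.6 and 53 CPM in APP/PS1 mice. The groups overlapped, with a log2 fold change of -0.25 ± 0.109 (edgeR FDR = 0.327; exact permutation p = 0.0952), which was -0.06 with the integrity number as a covariate and -0.10 with WT mouse 19622 kept in (edgeR FDR = 0.927 and 0.817).

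APP/PS1/FTnKO and WT mice differ in the transgenes, the Cre and the deletion together, and this comparison shares its WT mice with the one above and its APP/PS1/FTnKO mice with the first. None of the 27 genes was called by edgeR, where 3.87% of all genes were called. At an unadjusted threshold 6 passed, all lower. Of all 17414 tested genes 22.1% passed in either direction, 1890 lower and 1962 higher. DESeq2 called 2 (Nlgn2 and Gabrd), where it called 7.59% of all genes, and limma-voom 0, where it called 3.72%. The groups did not overlap in 1 gene, Nlgn2, against 5.60% of all genes. Fold changes were lower in 20 and higher in 7 genes, with a median log2 fold change of -0.08 against 0.0053 over all genes, of which 48.7% were lower. Astrocyte markers summed to 1056 to 1176 CPM in WT and 1183 to 2234 CPM in APP/PS1/FTnKO mice, without overlap, and without Gfap to 968 to 1045 and 902 to 1295 CPM. Excitatory neuron markers summed to 4366 to 6171 and 3118 to 4906 CPM. Their part in these values was not tested.

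Nlgn2 measured 281, 287, 290, 297 and 298 CPM in WT mice, and all 6 APP/PS1/FTnKO mice, at most 276 CPM, lay below. The log2 fold change was -0.13 ± 0.0398 (edgeR FDR = 0.0731; exact permutation p = 0.00433). Nlgn2 had the smallest scatter of the 27 genes, with a residual SD of 0.0486 on the log2 scale. Gabrd measured 75.9, 79.6, 83.5, 88.8 and 90.3 CPM in WT mice and overlapped with APP/PS1/FTnKO, with a log2 fold change of -0.15 ± 0.0488 (edgeR FDR = 0.0836; exact permutation p = 0.0476). Slc12a2 measured 69.9, 79.7, 81.2, 84.8 and 84.8 CPM in WT and 60.4, 61.5, 67.3, 68.5, 70.3 and 77.4 CPM in APP/PS1/FTnKO mice. Of the 6 APP/PS1/FTnKO mice 4 lay below every WT mouse, with a log2 fold change of -0.26 ± 0.0923 (edgeR FDR = 0.117; exact permutation p = 0.013). With WT mouse 19622 kept in, edgeR gave log2 fold changes of -0.085 for Nlgn2, -0.27 for Gabrd and -0.50 for Slc12a2 (FDR = 0.39, 0.126 and 0.141).

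Gabrb2 measured 59.8, 81.2, 81.2, 85.5, 107 and 112 CPM in APP/PS1/FTnKO mice, 5 of which lay below every WT mouse. The log2 fold change was -0.45 ± 0.168 (edgeR FDR = 0.133; exact permutation p = 0.00866), beside 0.07 ± 0.161 between the 2 transgenic genotypes. Gabra5 measured 33.8, 37.1, 37.7, 41, 42.3 and 46.8 CPM, with a log2 fold change of -0.24 ± 0.109 (edgeR FDR = 0.208; exact permutation p = 0.0476). It was -0.09 with WT mouse 19622 kept in (edgeR FDR = 0.807) and -0.13 with the integrity number as a covariate (edgeR FDR = 0.435).

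**Figure D3:**
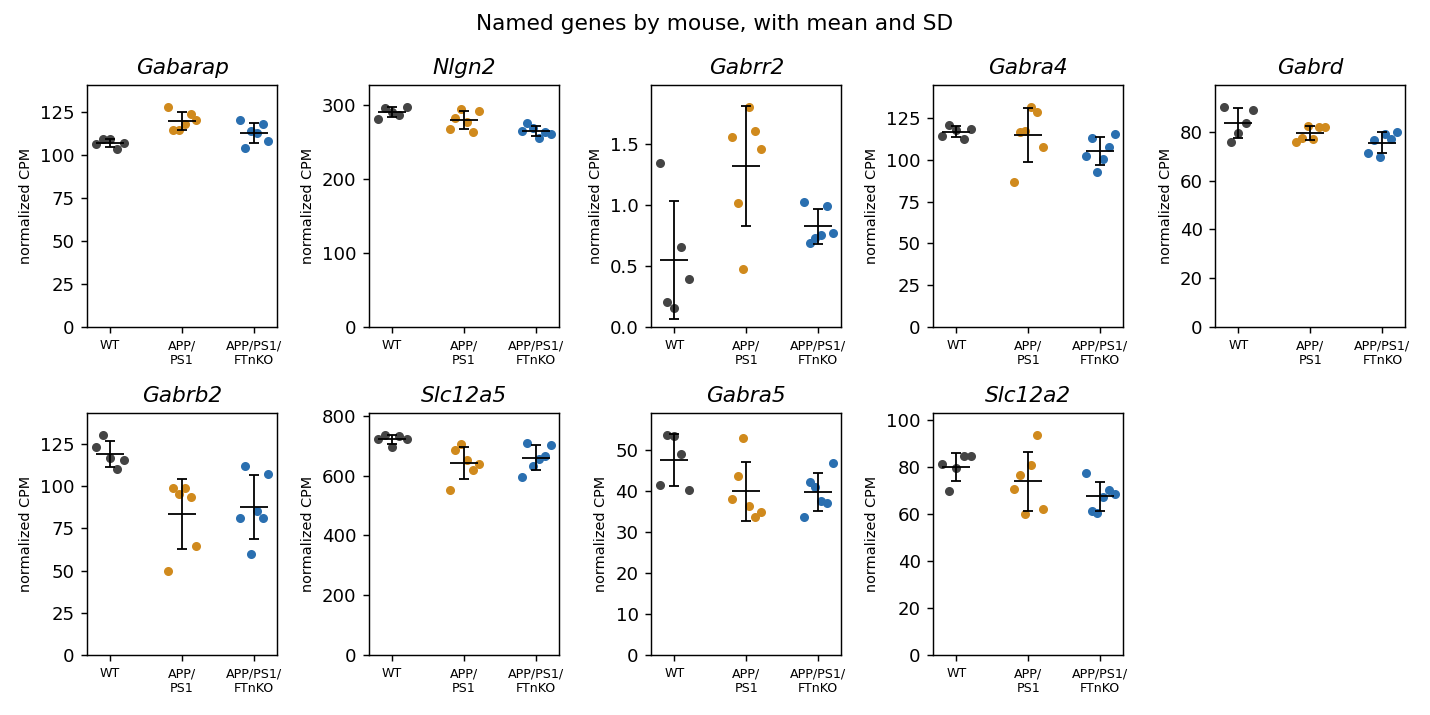
Normalized CPM (y axis from 0) of the 9 genes named for the smallest p in any comparison, with 1 point per mouse, the mean as a bar and the SD as whiskers (5 WT, 6 APP/PS1 and 6 APP/PS1/FTnKO mice). In Gabrb2 and Gabarap the WT points do not overlap with the APP/PS1 points, and in Nlgn2 the WT points do not overlap with those of APP/PS1/FTnKO mice.

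The genes of GABA supply showed no call in any comparison. Gad1 averaged 468 ± 92.6 CPM in WT (SD, n = 5), 402 ± 61.2 in APP/PS1 (n = 6) and 402 ± 41.8 in APP/PS1/FTnKO mice (n = 6). Gad2 averaged 285 ± 41, 277 ± 55.4 and 284 ± 43.2 CPM, and the vesicular transporter gene Slc32a1 107 ± 20.9, 105 ± 24.8 and 105 ± 18 CPM. Abat, which breaks down GABA, averaged 370 ± 37, 367 ± 50.6 and 380 ± 31.4 CPM. For the glial transporter gene Slc6a11 the edgeR log2 fold changes were 0.09 ± 0.122 between the transgenic genotypes, -0.11 ± 0.128 for APP/PS1 and -0.02 ± 0.128 for APP/PS1/FTnKO against WT. The remaining subunits Gabra2, Gabra3, Gabrb1, Gabrg1, Gabrg3, Gabbr1, Gabbr2, Glra2, Glra3 and Glrb and the scaffold gene Gphn had log2 fold changes between -0.18 and 0.13 in the 3 comparisons. Those of the sparsely counted Gabre were 0.51 ± 0.627 between the transgenic genotypes, 0.28 ± 0.713 for APP/PS1 and 0.79 ± 0.674 for APP/PS1/FTnKO against WT, and those of Gabrq 0.56 ± 0.562, 0.06 ± 0.628 and 0.62 ± 0.59, with edgeR FDR from 0.527 to 0.978.

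Of 41 further genes of these synapses (partners, scaffolds, transmitter metabolism, chloride regulators and other subunits), 35 could be tested. edgeR called 0 in APP/PS1/FTnKO against APP/PS1 mice, with 4 of 35 at the unadjusted threshold (11.5% of all genes) and a median log2 fold change of -0.03. It called 0 in APP/PS1 against WT, with 5 of 35 at the unadjusted threshold (14.0% of all genes) and a median of -0.04. Of these 5 genes 4 were lower and 1 higher, and the 4 of the comparison before were all lower. In APP/PS1/FTnKO against WT edgeR called 3 (3.87% of all genes), all lower, and the median was -0.09. There 10 of 35 passed the unadjusted threshold, and these were all lower too. The share of all genes that passed it was 22.1% for both directions together, 1890 lower and 1962 higher. Insyn1, a partner of the inhibitory postsynaptic scaffold, averaged 153 ± 4.33 CPM in WT, 137 ± 5.02 in APP/PS1 and 127 ± 11.1 in APP/PS1/FTnKO mice and fell by 0.26 ± 0.0522 on the log2 scale against WT (edgeR FDR = 0.0117). Trak1, an adaptor for transport along microtubules, averaged 227 ± 11.1, 217 ± 10.2 and 193 ± 13.9 CPM and fell by 0.23 ± 0.0516 (edgeR FDR = 0.0207). Kctd12, an auxiliary GABA-B subunit, averaged 99.8 ± 12.7, 95.5 ± 7.5 and 82.5 ± 5.06 CPM and fell by 0.28 ± 0.0756 (edgeR FDR = 0.0499). Trak1, Kctd12 and Trak2 also had the smallest p of the list in APP/PS1/FTnKO against APP/PS1, with log2 fold changes of -0.16, -0.21 and -0.13 (edgeR FDR = 0.186, 0.256 and 0.261). Insyn1, Kctd16 and Slc12a4 did so in APP/PS1 against WT, with log2 fold changes of -0.16, -0.60 and 0.21 (edgeR FDR = 0.18, 0.205 and 0.329).

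Between sexes none of the 27 genes was called by edgeR, where 0.0689% of all genes were called. DESeq2 and limma-voom also called 0, where they called 0.178% and 0.0861% of all genes. At the unadjusted threshold 2 passed in edgeR, against 6.70% of all genes. That count was 7 without WT mouse 19101 (8.36% of all genes in the same fit), 6 without APP/PS1/FTnKO mouse 16974 (8.91%), 10 without those 2 and APP/PS1 mouse 19553 (9.9%), and 1 to 5 without any other single mouse (5.11% to 7.75%). With all 17 mice the 2 were Abat (log2 fold change 0.18 ± 0.0615, female over male, edgeR FDR = 0.575) and Slc32a1 (0.27 ± 0.121, edgeR FDR = 0.709). Over these mice 7 striatal markers, described below, summed to 1294 to 2088 CPM in females and 720 to 1568 CPM in males. Their part in the Abat and Slc32a1 values was not tested. A difference of the genotype effect between sexes was called by edgeR in 0% of all genes. DESeq2 and limma-voom called 0 of the 27, where they called 0.0172% and 0% of all genes. At the unadjusted threshold 1 of the 27 (Gabrg1) passed in edgeR, against 2.65% of all genes. That count was 4 without APP/PS1/FTnKO mouse 19720 (4.16% of all genes) and 3 without APP/PS1 mouse 16975 (4.86%) or WT mouse 19718 (3.23%). It was 2 without APP/PS1 mouse 19723 (3.02%) or WT mouse 19721 (2.83%), and 1 without any other single mouse (2.05% to 3.5%). Gabrg1 averaged 29.2 CPM in 2 female and 29.9 in 3 male WT mice, 32.1 CPM in 3 female and 26.2 in 3 male APP/PS1 mice, and 29.5 in 3 female and 34.4 in 3 male APP/PS1/FTnKO mice (edgeR FDR = 1). Of the further synapse genes, Iqsec3, Nlgn3 and Oxsr1 had the smallest p between sexes, with log2 fold changes of -0.16, -0.12 and 0.12, female over male (edgeR FDR = 0.575, 0.701 and 0.718), and Iqsec3, Kctd16 and Insyn1 for sex by genotype (edgeR FDR = 1 each).

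Scatter between mice, after genotype and sex were removed, was widest for Gabre and Gabrq, with residual SDs of 1.12 and 1.05 on the log2 scale. Gabrq ranged from 1.4 to 10 CPM across the WT mice, from 1.3 to 8.25 across APP/PS1 and from 1.16 to 10.3 across APP/PS1/FTnKO mice. Gabre ranged from 0.2 to 2.07, 0.235 to 2.98 and 0.194 to 3.11 CPM. Over 17 mice the residuals of the 2 genes had a Pearson r of 0.918 and a Spearman rho of 0.811, the third largest r of all pairs of the 27 genes. The 3 highest Gabrq values, 10, 8.25 and 10.3 CPM, belonged to WT mouse 19101, APP/PS1 mouse 19553 and APP/PS1/FTnKO mouse 16974. In these 3 mice the hypothalamic neuropeptide genes Avp, Oxt, Pmch, Hcrt and Agrp summed to 9.66, 12.6 and 27.1 CPM, against at most 1.8 CPM in the other 14. The genes most alike in their residuals were Prlr, Irs4, Sytl4, BC035947 and AW551984 for Gabrq (r of 0.964 to 0.937) and Agt, Kcnj5, Prlr, Ngfr and Zim1 for Gabre (r of 0.952 to 0.919). Gabrq residuals ran with the hypothalamic marker sum (r = 0.831, rho = 0.6) and with the striatal marker sum (r = 0.799, rho = 0.824). The r of single genes were chosen as the largest of all genes, and every point carries its own library and tissue piece.

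**Figure D4:**
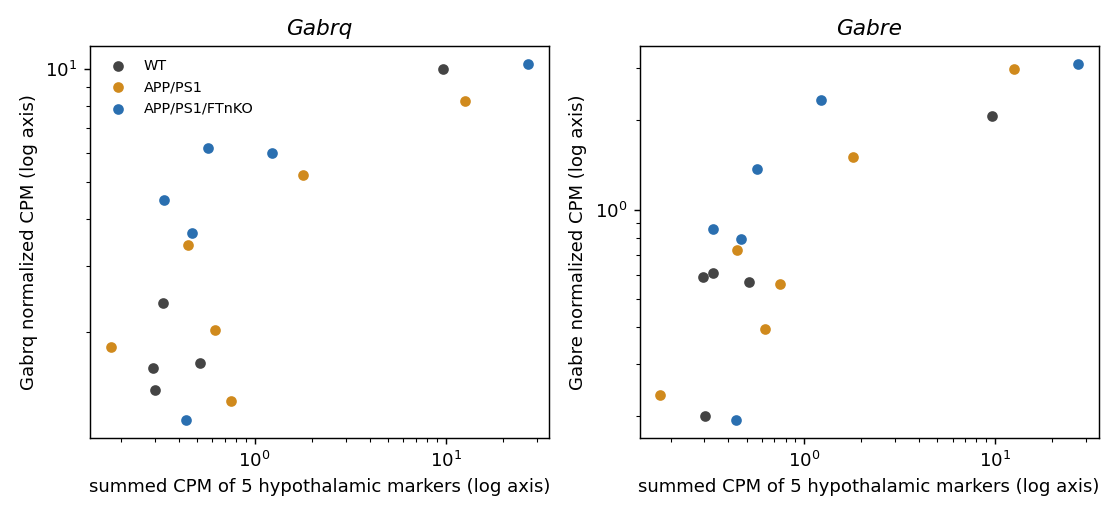
Normalized CPM of Gabrq and of Gabre (y axes, log) against the summed CPM of 5 hypothalamic marker genes (x axes, log), with 1 point per mouse and a colour per genotype (17 mice). The 3 mice at the right, 1 of each genotype, hold the 3 highest Gabrq values, whereas for Gabre APP/PS1/FTnKO mouse 18943 (2.35 CPM) lies above WT mouse 19101 (2.07 CPM).

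Gabrb2 had a residual SD of 0.329. Its residuals were most like those of Pja2, Slc9a7, Prepl, Plcb1 and Crbn (r of 0.972 to 0.959). Among the 27 genes they were most like Gabra4 (r = 0.929) and Glra2 (r = 0.918). Gabra4 and Gabrb1, whose promoters are printed above, had an r of 0.844. Gad2 and Slc32a1, both used by GABA neurons, had an r of 0.896, and each also ran with the sum of 7 striatal markers (r = 0.95 and 0.923, and 0.939 and 0.899 without the 2 mice farthest from the median of that sum). Striatal markers ranged from 720 to 2088 CPM over the 17 mice. Slc12a5 ran against the astrocyte marker sum (r = -0.912, and -0.875 without the 2 farthest mice). All of these are descriptions over 17 mice, with the largest picked from many.

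WT mouse 19622 lay outside the range of the other 17 mice in 17 of the 27 genes, against 55.4% of all genes. It was above in 8 and below in 9. Gabrg3 measured 8.31 CPM, 4.82-fold below the mean of the other 5 WT mice (35.8 to 44 CPM), and Gabra4 29.2 CPM, 4-fold below (112 to 122 CPM). Gabra3 measured 64.8 CPM and Gabra5 20.8 CPM, 2.51-fold and 2.28-fold below. Gabrq measured 11.8 CPM, 3.46-fold above the mean of the others (1.41 to 9.96 CPM) and 6.69-fold above it without WT mouse 19101. Slc12a2 measured 184 CPM, 2.3-fold above the mean of the others (70.3 to 84.8 CPM), and Gabrd 130 CPM, 1.56-fold above (76.3 to 90 CPM). Gabrb2 measured 164 CPM, Glrb 271 CPM and Abat 545 CPM, 1.38-fold, 1.35-fold and 1.48-fold above. Choroid plexus markers summed to 1355 CPM in this mouse, against 4.88 to 457 CPM in the others, and their part in its Slc12a2 value was not tested. It is a single library, so these values have no replicate check.

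**Figure D5:**
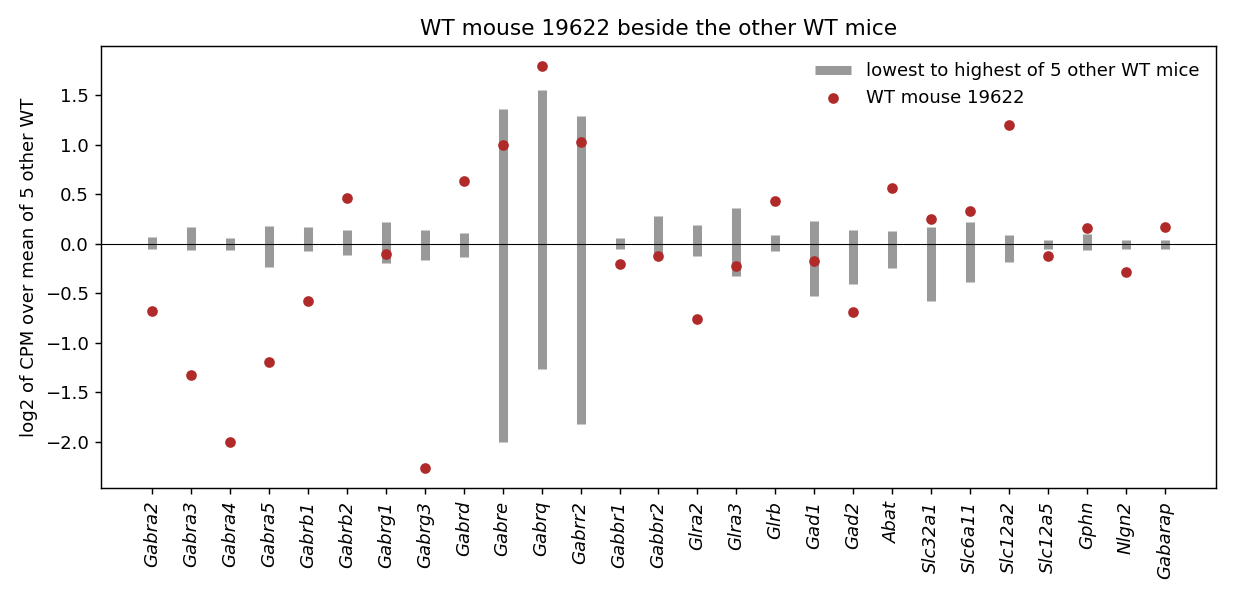
Log2 of normalized CPM over the mean of the 5 other WT mice (y axis) for the 27 genes, with WT mouse 19622 as red points and the range of the 5 other WT mice as grey bars. Gabra4 and Gabrg3 lie about at or below -2. Gabrq and Slc12a2 lie above 1, and Gabrr2 and Gabre lie about at 1.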

How the data were processed

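Total RNA from frontal cortex was made into stranded mRNA libraries and sequenced in 18 mice. Per the labels, the authors processed the reads with Trimmomatic (version 0.33), FastQC (0.11.7), HISAT2 (2.1.0) and featureCounts, and deposited raw read counts per gene, with replicates kept apart. Depth was 15925432 to 21030935 counts per library. Each library is a separate mouse.

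Counts were fitted in edgeR (version 4.0.16, R 4.3.3) with TMM scaling, filterByExpr (minimum count 10) and the quasi-likelihood test, with genotype and sex, in 17 mice, and adjusted by Benjamini-Hochberg over 17414 genes. DESeq2 (1.42.0), limma-voom (limma 3.58.1), other scalings, filters, covariates and sets of mice were alternatives. The fit was tested on simulated data. Exact permutation tests used scipy. Exon lengths came from GENCODE M21 on GRCm38. Given by mouse were the 5 genes with the smallest p in each of the 3 genotype comparisons. Of the further synapse genes, called ones and the 3 with the smallest p per comparison were named. WT mouse 19622 was left out of the fit, since the choice of genes set it apart and the study's methods left out a WT outlier; the labels do not mark it. The genes, lists and the alternatives were chosen with earlier results of these data known.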

Additional observations from a re-analysis of the deposited data

Results flagged for a closer look

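In groups of 5 or 6 mice, a value was taken as far from the rest where its gap to the next, over the range, passed Dixon's 95% critical value. Chance gives this in about 1 of 20 groups, and 8 values were found in 81 groups. WT mouse 19718 was highest in Gabra3 (181.9 CPM), Gabrb1 (193.4 CPM) and Gabbr2 (368.2 CPM) and lowest in Gad2 (213.5 CPM). WT mouse 19101 was highest in Gabre (2.07 CPM) and Gabrq (10 CPM), and has the hypothalamic markers described above. APP/PS1/FTnKO mouse 19720 was lowest in Gad2 (200.1 CPM) and Slc32a1 (69.8 CPM). The striatal markers summed to 815 CPM in WT mouse 19718 and 720 CPM in mouse 19720, the lowest of their genotypes, and their part was not tested.

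WT mouse 19622, left out of the chosen fit, held 400.2 CPM of Gabra6, the α6 subunit of cerebellar granule cells, against 0 to 0.186 CPM in the other 17 mice. It also held 208.7 CPM of Slc6a5, the neuronal glycine transporter of hindbrain, against 0 to 0.187 CPM.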

How the results depend on the processing

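Beside the chosen fit (0 of the 27 genes called in each comparison), DESeq2 called 1 for APP/PS1 against WT (Gabarap, log2 fold change 0.16, FDR = 0.0183). For APP/PS1/FTnKO against WT it called 2 (Nlgn2, -0.13, FDR = 0.0105, and Gabrd, -0.15, FDR = 0.0376). In these comparisons DESeq2 called 2.69% and 7.59% of all genes. Without a filter on low counts edgeR called 1 in each of these (Gabrb2, -0.51, FDR = 0.014, and -0.44, FDR = 0.0309) and 1 for sex by genotype (Gabrq, FDR = 0.015), where it called 1.36%, 2.93% and 0.269% of all genes. In mice with an RNA integrity number of at least 8 it called 1 for APP/PS1/FTnKO against WT (Slc12a2, -0.31, FDR = 0.0474), where it called 2.11% of all genes. Without the 3 mice with hypothalamic markers, chosen after seeing the data, it called 1 for APP/PS1 against WT (Gabrr2, 1.90, FDR = 0.0166; 1.31% of all genes). Leaving out 1 mouse gave 0 to 1 there, the 1 being Gabrr2 without WT mouse 19101 (1.93, FDR = 0.00824; 1.39% of all genes). The 15 fold changes of the 9 genes given by mouse kept their direction under each alternative run; the further synapse genes were not rerun.

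The percent of all genes called moved more. For APP/PS1/FTnKO against APP/PS1 (0.327) it was 0.0116 with all 18 mice, 0.0804 at an integrity number of at least 8, 1.45 with DESeq2, 0.526 at a minimum count of 50, 1.5 with the integrity number as a covariate, 0.0344 without the 3 mice with hypothalamic markers, 0.0297 with only these 2 genotypes, and 0.0578 to 0.467 leaving out 1 mouse. For APP/PS1 against WT (1.50) it was 0.689 at an integrity number of at least 8, 2.69 with DESeq2, 0.482 with the covariate, and 0.706 to 2.68 leaving out 1 mouse. For APP/PS1/FTnKO against WT (3.87) it was 1.51 with all 18 mice, 2.11 at an integrity number of at least 8, 7.59 with DESeq2, 2.23 with the covariate, 1.28 without the 3 mice, and 1.17 to 5.69 leaving out 1 mouse. The cause was not tested.

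The median log2 fold change of the 27 genes ranged from -0.0391 to 0.0245 leaving out 1 mouse for APP/PS1/FTnKO against APP/PS1, from -0.1118 to -0.0293 for APP/PS1 and from -0.1319 to -0.0662 for APP/PS1/FTnKO against WT. Gabrr2 has no value at a minimum count of 50. Depth limits Gabre and Gabrr2, at 4 to 52 and 3 to 33 reads per library. Per the study's methods the genotypes were littermates, but the sample labels used do not give litters, so no paired analysis was run.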
